A study of Mus musculus with 79 samples.

Results

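The synaptic vesicle and release genes are 35 genes for proteins that load, dock, fuse and retrieve synaptic vesicles, taken by their listed symbols. All 35 symbols stood in the gene count table, among 24033 genes. They comprise 6 SNARE and complexin genes, 6 synaptotagmins, 8 active zone and priming genes, 4 genes for vesicle membrane proteins, 3 vesicular glutamate transporters, 5 synapsins and synucleins and 3 genes of vesicle endocytosis. They were followed in dorsal root ganglia L4-5, the site of the cell bodies of neurons whose axons run in the sciatic nerve, from BAC-TRAP BR145-GFP mice. Both sciatic nerves were crushed 1 h, 12 h, 24 h, 48 h, 72 h or 7 d before sampling, or mice were naive, and naive mice carried the same BR145-GFP transgene. IP libraries held RNA captured through GFP with a chicken antibody on magnetic beads, and Input libraries held the total RNA. The labels give neither the promoter that drives the transgene nor the ages and sexes of the mice. There were 5, 6, 4, 6, 7 and 4 IP libraries at the 6 times and 7 naive ones, and 5, 6, 5, 6, 7 and 4 Input libraries and 7 naive ones. The labels do not say whether libraries came from separate animals, so the p-values measure the spread between libraries.

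Transmitter is released when a vesicle is docked and primed at the active zone and its SNARE protein binds the SNAREs of the plasma membrane. Calcium entering through nearby channels acts on synaptotagmin, complexins clamp and assist the assembled SNAREs, and the vesicle membrane is then taken back by endocytosis. Sensory neurons make these proteins in the ganglion and ship them to their terminals in skin, muscle and spinal cord. Their main fast transmitter is glutamate, which vesicular glutamate transporters load into vesicles. The same fusion machinery also adds membrane to growing axons and releases peptides from dense-core vesicles.

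Library totals ran from 3614942 to 16721527 gene counts in IP and from 8737964 to 22221882 in Input. The ribosomal RNA precursor Rn45s and Lars2, whose transcript carries a stretch like ribosomal RNA, took 1.37% to 75.1% of IP counts and 1.64% to 25.5% of Input counts. This share was lowest at 7 d in both fractions, with a median of 3.51% at 7 d and 32.1% in naive IP, and of 2.15% at 7 d and 14.9% in naive Input. Satellite glia markers (7 genes) summed to 2847 to 3812 CPM in 7 d IP against 1176 to 2495 CPM in naive IP, and to 5591 to 7193 CPM in 7 d Input against 2458 to 3420 CPM in naive Input. In neither fraction did these ranges overlap, while 1 of the 7 markers was called higher and 1 lower in IP and 3 higher and 1 lower in Input. The 8 Schwann and myelin markers summed to 2140 to 2942 CPM in 7 d IP against 3076 to 8961 CPM in naive IP. These ranges did not overlap, and 5 markers were called lower and 0 higher. In 7 d Input they summed to 3113 to 4260 CPM against 2086 to 3932 CPM in naive Input, with overlap. There 2 were called higher and 1 lower. A covariate used below, the summed glial markers, joins both lists. Of 8 macrophage markers, 7 were higher in 72 h Input, where they summed to 539 to 895 CPM against 359 to 715 CPM in naive Input, 3 in 48 h Input and 6 in 7 d Input, where they summed to 663 to 1268 CPM. In IP 7 of them were lower at 1 h and 6 at 12 h, with sums of 82.8 to 223 CPM in 1 h IP against 197 to 1174 CPM in naive IP. Their part in the changes was not tested. The 12 pan-neuronal markers summed to a median of 11764 CPM in 7 d IP and 8703 CPM in naive IP, and of 10348 CPM in 7 d Input and 13158 CPM in naive Input. Both pairs of ranges overlapped. Of the 12, 4 were called higher and 1 lower in IP, and 4 higher and 6 lower in Input. The 8 sensory neuron markers summed to 3702 to 4036 CPM in 7 d IP against 1926 to 3456 CPM in naive IP, without overlap. Of these, 4 were called higher and 1 lower, and in 7 d Input, where the ranges overlapped, 5 higher and 3 lower. The 7 d libraries stand apart from the other times, and a difference in how they were made cannot be told apart from time. In bulk ganglia, fewer cells of a type and less RNA per cell cannot be told apart either. None of the listed neuronal or glial markers was under a mean of 1 CPM in any group. The naive libraries, the reference of the 6 times, also stood apart in Input. All 4 adipocyte markers were called lower there at each time. Their median sum was 5.71 CPM in 1 h Input and 56.4 CPM in naive Input. All 6 fibroblast markers were lower there at 1 h, 12 h, 24 h and 48 h. At 72 h 0 were lower, and 2 at 7 d. In IP 2 adipocyte markers were lower at 1 h and 0 at 48 h. Of the fibroblast markers 3 were lower in IP at 1 h and 0 at 72 h. The part of other tissue in the naive libraries was not tested.

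RefSeq promoters (250 bases before to 50 after a start, GRCm38.p6) were found for 29 of the 35 genes, at 40 starts, and 3 promoters are shown. Stx1a is shown because it had the largest rise among the 35 genes, Rph3a because its change over the 6 times had the smallest adjusted p of the 35 in both fractions, and Syn1 because its rise stood beside that of a gene within its span. The first lies at chr5:135023232-135023531 on the plus strand, the second (1 of 3 listed starts) at chr5:121010043-121010342 on the minus strand, and the third at chrX:20920869-20921168 on the minus strand. Capitals mark matches on either strand to the GC box letters GGGCGG in Stx1a, to the AP-1-like letters TGANTCA in Rph3a and to the CRE letters TGACGTCA in Syn1. N stands for any base, and it is A in the stretch marked in Rph3a.
Stx1a: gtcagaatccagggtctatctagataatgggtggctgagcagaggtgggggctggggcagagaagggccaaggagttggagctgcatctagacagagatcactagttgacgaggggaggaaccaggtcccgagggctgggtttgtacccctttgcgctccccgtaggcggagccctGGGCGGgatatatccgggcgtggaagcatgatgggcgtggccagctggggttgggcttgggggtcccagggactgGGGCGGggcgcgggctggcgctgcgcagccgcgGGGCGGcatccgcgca
Rph3a: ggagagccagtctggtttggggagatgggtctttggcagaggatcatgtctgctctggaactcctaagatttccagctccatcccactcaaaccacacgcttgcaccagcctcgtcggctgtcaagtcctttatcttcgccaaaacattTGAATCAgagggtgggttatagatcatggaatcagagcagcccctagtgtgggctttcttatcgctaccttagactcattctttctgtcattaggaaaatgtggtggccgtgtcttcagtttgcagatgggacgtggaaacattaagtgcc
Syn1: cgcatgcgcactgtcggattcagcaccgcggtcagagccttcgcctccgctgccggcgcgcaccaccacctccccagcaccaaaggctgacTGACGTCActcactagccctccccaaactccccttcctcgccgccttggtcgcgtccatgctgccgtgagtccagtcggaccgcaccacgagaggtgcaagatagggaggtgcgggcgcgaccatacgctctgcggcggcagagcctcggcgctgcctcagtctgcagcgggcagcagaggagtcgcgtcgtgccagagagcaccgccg
The shown Stx1a promoter held 3 GC boxes, that of Rph3a 1 AP-1-like match and that of Syn1 1 CRE match. Among all 32851 promoters of the table, 35.7% held a GC box, 7.81% an AP-1-like match and 1.79% a CRE match. Of the 40 promoters of the 29 genes, 25 held a GC box, 2 (Rph3a and Syt2) an AP-1-like match and 2 (Sh3gl2 and Syn1) a CRE match. The Rph3a start shown was picked for its AP-1-like match, and another of its 3 starts held a GC box. A match describes letters in the window only.

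Over the 6 times after crush, 27 of the 35 genes changed in IP and 32 in Input by the F-test of edgeR's quasi-likelihood fit at a Benjamini-Hochberg adjusted p below 0.05. The backgrounds were 29.9% of 18656 genes in IP and 73.2% of 16217 genes in Input. All 35 genes passed the filter on low counts in both fractions. The 24 genes that changed in both fractions were joined by 8 in Input only (Syt1, Syt11, Unc13a, Slc17a6, Syn3, Sncg, Amph and Sh3gl2) and 3 in IP only (Vamp2, Bsn and Sncb), which alone does not show a difference between fractions. Without the 7 d libraries, 16 genes passed in IP and 25 in Input, and the shares of all genes were 11.6% and 50.1%.

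Early calls by edgeR were few in IP. There, 2 genes were higher at 1 h (Bsn and Dnm1, against 0.665% of all genes called higher), 0 passed at 12 h (2.27% of all genes called) and 1 was higher at 24 h (Syt4, against 1.9%). At 48 h, 2 were higher and 2 lower, against 2.19% and 1.03% of all genes, and at 72 h, 2 were higher and 5 lower, against 2.15% and 1.33%. At 7 d, 13 were higher and 6 lower, against 13.1% and 15.3%. For the 0 at 12 h from edgeR, 9 of the 35 genes had an unadjusted p below 0.05. DESeq2 called 4 genes (6.06% of all genes), and edgeR called 4 without 12 h IP replicate 3. For 1 h IP, 11 of the 35 genes had an unadjusted p below 0.05 by edgeR, and DESeq2 called 8 (4.05% of all genes). In Input, 8 were higher and 1 lower at 1 h (5.14% and 6.07% of all genes), 3 were higher at 12 h (3.05%), and 1 was higher and 2 lower at 24 h (7.27% and 4.67%). Then 3 were higher and 13 lower at 48 h (18.4% and 18.9%), 1 was higher and 14 lower at 72 h (12.7% and 11.5%), and 16 were higher and 8 lower at 7 d (29.7% and 26.4%). The count at 1 h was 0 without any 1 of 8 libraries in IP (12 h replicate 4 among them) and without 1 h replicate 1 or 1 other library in Input. Leaving out 1 library gave 1 to 7 genes in 12 h Input (7 without naive replicate 3), 1 in 24 h Input without 24 h replicate 2, and 2 in 24 h IP without 12 h replicate 3.

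The median log2 change of the 35 genes in IP was 0.42 at 1 h, -0.25 at 72 h and 0.36 at 7 d, beside -0.08, -0.05 and -0.18 over all genes tested. In Input it was 0.18 at 1 h, -0.27 at 72 h and 0.25 at 7 d, beside 0.01, -0.01 and 0.03 over all genes. The 1 h IP median was 0.13 with the summed pan-neuronal markers as a covariate and 0.20 with the summed glial markers. With either, 0 members were called, against 2.09% and 0.268% of all genes. The pan-neuronal sum had a median of 14975 CPM in 1 h IP against 8703 CPM in naive IP, with overlap. The 6 comparisons with naive share the naive libraries. In IP, 18 of the 35 genes had their largest change at 7 d (12 higher, 6 lower) and 7 at 72 h (all lower). In Input, 20 had it at 7 d (15 higher, 5 lower), 8 at 72 h (1 higher, 7 lower) and 5 at 48 h (all lower). With the summed glial markers as a covariate, 13 genes passed at 7 d in Input in place of 24, and the share of all genes called was 31.5% in place of 56.2%. The median log2 change of the 35 genes there was 0.35 with the covariate and 0.25 without it. With the pan-neuronal covariate 23 genes passed (13 higher, 10 lower), against 39.6% of all genes, and the median was 0.16. The calls lost were those of Dnm1, Vamp2, Stx1a, Rab3c, Sv2b and Slc17a8. The 11 genes no longer called with the glial covariate were Stx1a, Syt4, Syt11, Rims2, Unc13a, Rab3c, Syp, Sv2b, Sv2c, Slc17a8 and Sncg.

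**Figure D1:**
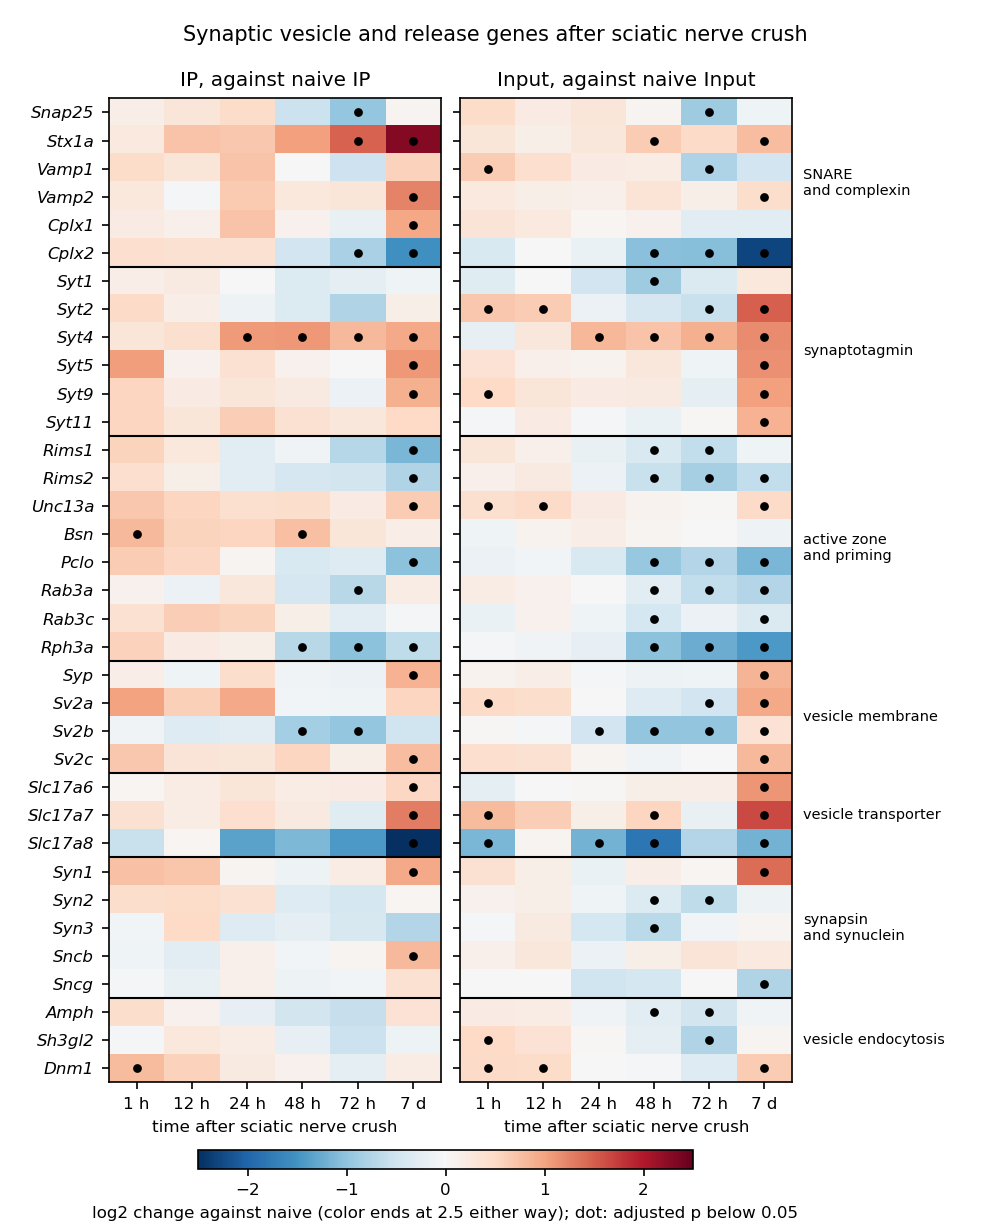
Log2 changes of the 35 genes (rows, grouped by role) against naive at 6 times after crush (columns), in IP (left) and Input (right). Color gives the log2 change and a dot marks an adjusted p below 0.05 by edgeR's quasi-likelihood test. In Input, rows of the active zone are mostly blue from 48 h, while most synaptotagmins and vesicle membrane genes are red at 7 d.

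The SNARE and complexin genes split by 7 d: in IP, Stx1a, Vamp2 and Cplx1 rose and Cplx2 fell, and in Input Stx1a and Vamp2 rose and Cplx2 fell. Stx1a encodes syntaxin 1A, a SNARE of the plasma membrane. It was at 25.5, 44.4 and 62.7 CPM in 72 h IP and 74.2, 88.8, 75.2 and 84.6 CPM in 7 d IP, against 6.54, 13.9 and 24.0 CPM in naive IP. CPM are counts scaled to library totals with TMM factors, given for each library or, for groups over 5, as lowest, median and highest. All 72 h and 7 d libraries lay above all naive ones. The change was 1.47 ± 0.31 at 72 h (log2 change ± SE here and below, adjusted p = 0.0017) and 2.29 ± 0.35 at 7 d (adjusted p = 2.53e-06). Input held 35.1, 45.6 and 52.2 CPM at 48 h and 49.4, 53.3, 44.4 and 46.6 CPM at 7 d, against 20.6, 23.9 and 45.6 CPM in naive Input, where the ranges overlap. Stx1a rose there at 48 h (log2 0.63 ± 0.19, adjusted p = 0.0078) and 7 d (log2 0.78 ± 0.21, adjusted p = 0.00155), and the calls were lost with the pan-neuronal covariate at 48 h (adjusted p = 0.0776) and with either covariate at 7 d.

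Vamp2, the SNARE of the vesicle membrane, stood at 562, 517, 501 and 544 CPM in 7 d IP against 154, 183 and 322 CPM in naive IP. The 7 d libraries were all above the naive ones (log2 1.25 ± 0.22, adjusted p = 4.19e-05), and no earlier time passed in IP. Input had 607, 684, 619.8 and 544 CPM at 7 d against 362, 398 and 661 CPM in naive Input, with overlap (log2 0.44 ± 0.16, adjusted p = 0.0204). The call was lost without 7 d Input replicate 2 (adjusted p = 0.0689). It was also lost with the pan-neuronal covariate (0.11 ± 0.17, adjusted p = 0.63) and with the replicate number as a block (0.36 ± 0.16, adjusted p = 0.0528). The F-test over the 6 times did not pass for Vamp2 in Input (adjusted p = 0.181). Vamp1, a close relative with the same role, rose in Input at 1 h (log2 0.64 ± 0.20, adjusted p = 0.0368) and fell at 72 h (log2 -0.77 ± 0.19, adjusted p = 0.00186). The 1 h call was lost without any 1 of 8 libraries (highest adjusted p = 0.135, without 1 h Input replicate 4). In IP Vamp1 passed the F-test over the 6 times (adjusted p = 0.00223) but at no single time.

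Snap25, the second plasma membrane SNARE, fell at 72 h to 326, 541 and 788 CPM in IP against 707, 897 and 1575 CPM in naive IP, and to 596, 897 and 1272 CPM in Input against 1139, 1378 and 2756 CPM in naive Input. The falls were -0.96 ± 0.21 in IP (adjusted p = 0.00237) and -0.89 ± 0.22 in Input (adjusted p = 0.00217), with some libraries overlapping. With the pan-neuronal covariate the 72 h Input call was lost (adjusted p = 0.114), as was that of Vamp1 (adjusted p = 0.0917). At 7 d Snap25 was at 801, 1028, 1175 and 1576 CPM in IP and its change from naive was 0.08 ± 0.24 (adjusted p = 0.831).

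The complexins, small proteins that bind assembled SNAREs, moved apart. Cplx1 had 671, 576, 689.8 and 762 CPM in 7 d IP against 248, 281 and 527 CPM in naive IP, without overlap (log2 0.96 ± 0.24, adjusted p = 0.00238). Its Input level was 779, 795, 810.3 and 819 CPM at 7 d against 718, 931 and 1296 CPM in naive Input, and no single time passed there. Cplx2 fell at 72 h and 7 d in IP and at 48 h, 72 h and 7 d in Input. It held 48.0, 68.3, 52.1 and 33.3 CPM in 7 d IP against 98.4, 120.4 and 209 CPM in naive IP (log2 -1.53 ± 0.25, adjusted p = 1.37e-05). Input had 36.8, 43.8, 36.5 and 27.4 CPM at 7 d against 155, 182 and 207 CPM in naive Input (log2 -2.30 ± 0.20, adjusted p = 1.27e-12). Neither pair of groups overlapped. The 72 h fall in IP (log2 -0.81 ± 0.21, adjusted p = 0.0136) was lost without naive IP replicate 2 (adjusted p = 0.0625) or naive IP replicate 3 (adjusted p = 0.0701). The Input falls at 48 h (log2 -1.04 ± 0.17, adjusted p = 3.50e-06) and 72 h (log2 -1.07 ± 0.16, adjusted p = 9.75e-07) had no overlapping library.

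**Figure D2:**
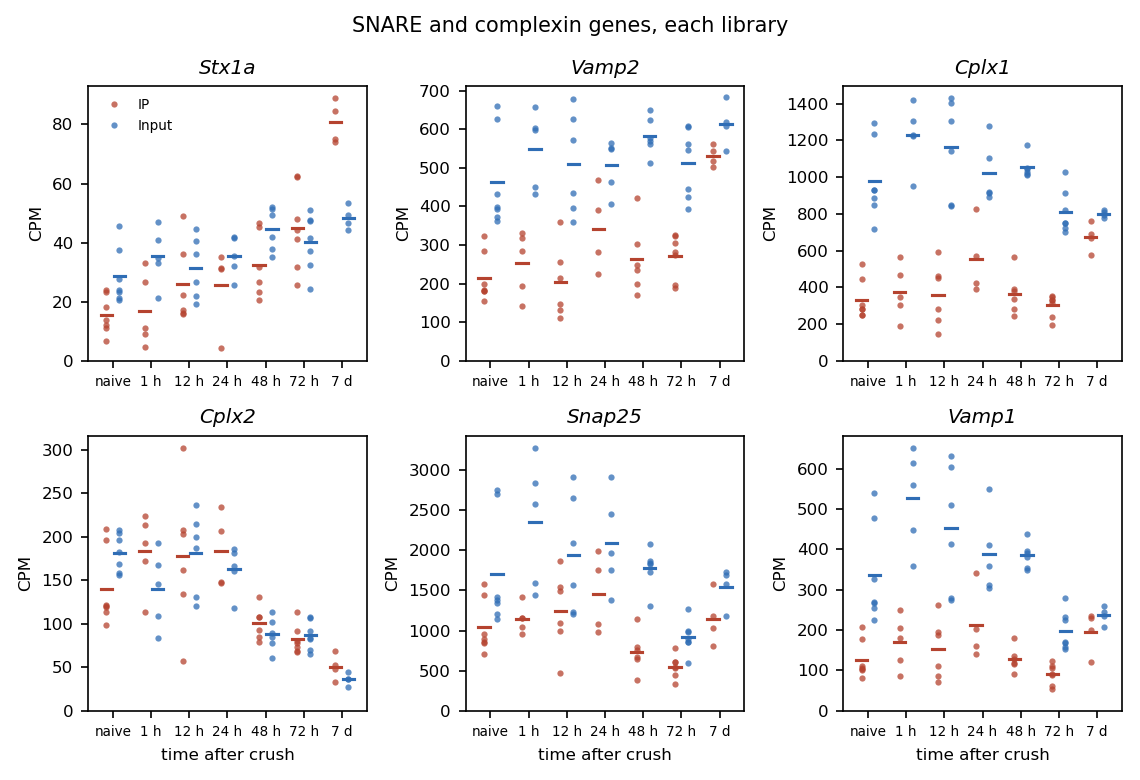
CPM of 6 SNARE and complexin genes in every library (points) with group means (bars) in naive ganglia and at 6 times after crush, IP in red and Input in blue. Stx1a in IP is highest at 7 d, Cplx2 is lowest at 7 d in both fractions, and Snap25 is lowest at 72 h.

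Of the synaptotagmins, the calcium sensors and related proteins of secretory vesicles, 3 of 6 rose at 7 d in IP (Syt4, Syt5 and Syt9) and 5 of 6 in Input (these 3, Syt2 and Syt11), against 13.1% and 29.7% of all genes called higher, and 0 fell at that time. With the glial covariate the Input calls were lost for Syt4 (0.87 ± 0.36, adjusted p = 0.0643) and Syt11 (0.62 ± 0.29, adjusted p = 0.0983), where the changes without it were 1.17 ± 0.19 and 0.88 ± 0.16. Syt4, an atypical synaptotagmin of dense-core and postsynaptic vesicles that binds calcium poorly, was the only member of the 35 called higher at 24 h in both fractions. It was at 906, 950.0, 858 and 725 CPM in 24 h IP, 706, 905 and 1004 CPM in 48 h IP, 622, 705 and 918 CPM in 72 h IP and 581, 979.5, 1029 and 686 CPM in 7 d IP, against 344, 406 and 476 CPM in naive IP. Every library of these 4 times lay above every naive one. The change was largest at 48 h (log2 1.08 ± 0.17, adjusted p = 1.10e-05). The change also passed at 24 h (log2 1.06 ± 0.18, adjusted p = 0.000197), 72 h (log2 0.81 ± 0.16, adjusted p = 0.000788) and 7 d (log2 0.95 ± 0.18, adjusted p = 0.000142). Input had 351, 399, 604, 416 and 573 CPM at 24 h and 524, 628, 649 and 498 CPM at 7 d against 174, 273 and 309.7 CPM in naive Input. Neither time overlapped naive there (log2 0.84 ± 0.18, adjusted p = 0.00125 at 24 h, and log2 1.17 ± 0.19, adjusted p = 2.08e-06 at 7 d). At 1 h Syt4 had 399, 558, 504, 358 and 625 CPM in IP and overlapped naive (log2 0.31 ± 0.18, adjusted p = 0.415).

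Syt2, a fast calcium sensor of large-diameter neurons, was in Input at 8.43, 12.9 and 19.4 CPM at 72 h and 60.2, 48.6, 44.2 and 57.2 CPM at 7 d, against 14.2, 18.8 and 26.8 CPM in naive Input. The 7 d libraries were above all naive ones (log2 1.49 ± 0.20, adjusted p = 5.04e-08). At 72 h it was lower than naive in Input (log2 -0.55 ± 0.19, adjusted p = 0.034), a call lost without any 1 of 6 libraries (highest adjusted p = 0.11, without naive Input replicate 3), and with the pan-neuronal covariate (adjusted p = 0.34). Syt2 was higher than naive at 1 h in Input (log2 0.68 ± 0.20, adjusted p = 0.026), lost without 1 h Input replicate 1 (adjusted p = 0.0929), 1 h Input replicate 4 (adjusted p = 0.178), naive Input replicate 2 (adjusted p = 0.0606) or naive Input replicate 5 (adjusted p = 0.0569). It was higher at 12 h too (log2 0.63 ± 0.19, adjusted p = 0.0439), lost without any 1 of 10 libraries (highest adjusted p = 0.176, without 12 h Input replicate 2). In IP it stood at 22.5, 39.2, 41.3 and 38.9 CPM at 7 d against 17.4, 35.3 and 40.2 CPM in naive IP, with overlap and no call at any single time.

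Syt1, the main calcium sensor of many central synapses, fell once, in 48 h Input, to 44.7, 68.2 and 73.4 CPM against 78.6, 130.4 and 154 CPM in naive Input, without overlap (log2 -0.88 ± 0.18, adjusted p = 0.000205). Its IP change at 48 h was -0.35 ± 0.17 (adjusted p = 0.326). Syt5 was at 71.4, 43.8, 31.8 and 46.4 CPM in 7 d IP against 11.2, 22.6 and 29.8 CPM in naive IP (log2 1.08 ± 0.31, adjusted p = 0.00724). This call was lost without 7 d IP replicate 1 (adjusted p = 0.0633). Input held 79.1, 87.9, 64.2 and 65.3 CPM in 7 d Input against 19.2, 35.8 and 45.6 CPM in naive Input (log2 1.15 ± 0.18, adjusted p = 6.33e-07). In both fractions the 7 d libraries of Syt5 lay above the naive ones. Syt9, a calcium sensor of vesicles in endocrine cells and some neurons, had 113, 81.4, 52.7 and 129 CPM in 7 d IP against 34.5, 44.6 and 66.7 CPM in naive IP, with overlap (log2 0.89 ± 0.22, adjusted p = 0.00241). Its Input level was 152, 133, 94.4 and 108 CPM at 7 d against 44.1, 59.1 and 84.3 CPM in naive Input, without overlap (log2 1.02 ± 0.15, adjusted p = 1.81e-07). Its rise at 1 h in Input (log2 0.50 ± 0.14, adjusted p = 0.0231) was lost without any 1 of 5 libraries (highest adjusted p = 0.138, without 1 h Input replicate 4). Syt11, which lacks calcium binding and acts in endocytosis, was at 1245, 1161, 1184 and 1107 CPM in 7 d Input against 498, 658 and 811 CPM in naive Input, without overlap (log2 0.88 ± 0.16, adjusted p = 6.89e-06). In IP, Syt11 had a change of 0.49 ± 0.20 at 7 d (adjusted p = 0.0654).

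In Input, most of the 8 active zone and priming genes were lower from 48 h on. There 6 fell at 48 h (Rims1, Rims2, Pclo, Rab3a, Rab3c and Rph3a), 5 at 72 h (the 6 without Rab3c) and 5 at 7 d (the 6 without Rims1), against 18.9%, 11.5% and 26.4% of all genes. In IP, 1 fell at 48 h (Rph3a, with Bsn higher), 2 at 72 h (Rab3a and Rph3a) and 4 at 7 d (Rims1, Rims2, Pclo and Rph3a, with Unc13a higher), against 1.03%, 1.33% and 15.3% of all genes. At 48 h in Input, Rims1 was lost without any 1 of 5 libraries (highest adjusted p = 0.106, without naive Input replicate 7). Rab3a was lost without any 1 of 6 libraries (highest adjusted p = 0.0881, without naive Input replicate 1). Rph3a encodes rabphilin 3A, which binds Rab3 on the vesicle and SNAP-25. It was at 91.2, 111 and 134 CPM in 48 h IP, 74.5, 90.8 and 106 CPM in 72 h IP and 99.5, 141, 146 and 92.4 CPM in 7 d IP, against 133, 176 and 226 CPM in naive IP. The 72 h libraries lay wholly below naive (log2 -1.02 ± 0.15, adjusted p = 3.15e-06), and those of 48 h (log2 -0.69 ± 0.16, adjusted p = 0.00461) and 7 d (log2 -0.64 ± 0.18, adjusted p = 0.00586) overlapped naive. Without the 6 libraries in which Rn45s and Lars2 exceeded 50% of counts, the adjusted p at 48 h was 0.0727. Input had 106, 129 and 138 CPM at 48 h, 94.2, 108 and 121 CPM at 72 h and 103, 100.2, 84.5 and 79.5 CPM at 7 d, against 218, 258 and 290.0 CPM in naive Input. No library of these 3 times reached the naive range, and the changes were -1.03 ± 0.11 (adjusted p = 1.52e-10), -1.24 ± 0.10 (adjusted p = 2.22e-13) and -1.44 ± 0.12 (adjusted p = 5.20e-13).

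Rims1 and Rims2 encode RIM scaffolds that tether calcium channels and prime vesicles. Rims2 was at 31.2, 28.9, 17.0 and 25.1 CPM in 7 d IP against 24.9, 46.5 and 53.7 CPM in naive IP, with overlap (log2 -0.76 ± 0.24, adjusted p = 0.0153). The call was lost without 7 d IP replicate 3 (adjusted p = 0.0772), naive IP replicate 2 (adjusted p = 0.0719), naive IP replicate 3 (adjusted p = 0.0529) or naive IP replicate 4 (adjusted p = 0.0587). In Input it held 26.3, 30.4 and 32.6 CPM at 48 h, 19.7, 24.5 and 30.6 CPM at 72 h and 28.4, 30.4, 26.7 and 27.3 CPM at 7 d, against 36.8, 45.5 and 52.1 CPM in naive Input. All libraries of those times were below all naive ones, with -0.83 ± 0.10 at 72 h (adjusted p = 4.86e-09). Rims1 in IP was at 25.0, 3.74, 10.4 and 7.04 CPM at 7 d against 13.2, 21.1 and 39.03 CPM in naive IP, with overlap (log2 -1.15 ± 0.39, adjusted p = 0.0225). This call was lost without 7 d IP replicate 2 (adjusted p = 0.105), 7 d IP replicate 3 (adjusted p = 0.0563), 7 d IP replicate 4 (adjusted p = 0.0958) or naive IP replicate 6 (adjusted p = 0.0575). Its Input fall at 72 h, to 9.84, 12.4 and 16.8 CPM against 14.1, 18.2 and 26.6 CPM in naive Input, was -0.61 ± 0.14 (adjusted p = 0.000994), and its Input value at 7 d was -0.11 ± 0.16 (adjusted p = 0.573).

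The giant scaffold genes Pclo (piccolo) and Bsn (bassoon) went separate ways. Pclo had 60.4, 107, 101 and 50.2 CPM in 7 d IP against 118, 158 and 174 CPM in naive IP, and 47.6, 57.5, 52.1 and 40.8 CPM in 7 d Input against 79.1, 114 and 137 CPM in naive Input. Neither pair overlapped (log2 -1.02 ± 0.22, adjusted p = 0.000429 in IP, and log2 -1.13 ± 0.22, adjusted p = 2.20e-05 in Input). Bsn was higher in IP at 1 h, with 67.9, 63.7, 35.2, 91.6 and 85.9 CPM against 26.9, 35.5 and 62.0 CPM in naive IP (log2 0.80 ± 0.19, adjusted p = 0.0175). It was higher again at 48 h, with 59.7, 64.3 and 84.8 CPM (log2 0.74 ± 0.18, adjusted p = 0.00894). Both times overlapped naive, and the 1 h call was lost without any 1 of 8 libraries (highest adjusted p = 0.187, without 1 h IP replicate 4). In Input Bsn did not pass the F-test over the 6 times (adjusted p = 0.551).

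Rab3a, the Rab protein that marks synaptic vesicles for docking, fell in IP at 72 h (log2 -0.70 ± 0.18, adjusted p = 0.0142), a call lost without any 1 of 6 libraries (highest adjusted p = 0.0913, without naive IP replicate 3). In Input it fell at 72 h (log2 -0.61 ± 0.09, adjusted p = 2.44e-06) and 7 d (log2 -0.72 ± 0.11, adjusted p = 6.61e-07), without overlap with naive at either time. Rab3c, a close relative of Rab3a, was lower in Input at 48 h (log2 -0.43 ± 0.10, adjusted p = 0.000795) and 7 d (log2 -0.36 ± 0.11, adjusted p = 0.00661). Unc13a encodes Munc13-1, which opens syntaxin for priming, and it rose at 7 d in IP (log2 0.63 ± 0.21, adjusted p = 0.0217) and in Input (log2 0.48 ± 0.13, adjusted p = 0.00127). It was also higher in Input at 1 h (log2 0.41 ± 0.12, adjusted p = 0.0269) and 12 h (log2 0.47 ± 0.12, adjusted p = 0.00936). Unc13a missed the F-test over the 6 times in IP (adjusted p = 0.0553). The IP call was lost without 7 d IP replicate 3 (adjusted p = 0.06), and the Input call at 1 h was lost without any 1 of 5 libraries (highest adjusted p = 0.089, without 1 h Input replicate 3).

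Vesicle membrane genes were higher at 7 d: all 4 in Input, and Syp and Sv2c of the 4 in IP, against 29.7% and 13.1% of all genes. With the glial covariate the 7 d Input calls were lost for Syp (0.36 ± 0.18, against 0.84 ± 0.11 without it), Sv2b (0.35 ± 0.26, against 0.36 ± 0.14) and Sv2c (0.64 ± 0.29, against 0.82 ± 0.15). Syp encodes synaptophysin, an abundant vesicle membrane protein. It stood at 421, 514, 466 and 373 CPM in 7 d IP against 149.9, 237 and 296 CPM in naive IP, and at 523, 561, 547 and 516 CPM in 7 d Input against 265, 309 and 333 CPM in naive Input. The groups did not overlap in IP (log2 0.87 ± 0.21, adjusted p = 0.00203) or in Input (log2 0.84 ± 0.11, adjusted p = 6.73e-09), and no earlier time passed. The SV2 proteins are vesicle glycoproteins, known as receptors of botulinum toxins. Sv2a was at 38.5, 31.0, 31.6 and 34.3 CPM in 7 d Input against 13.3, 17.9 and 23.1 CPM in naive Input (log2 0.95 ± 0.15, adjusted p = 1.52e-06), without overlap, after a fall at 72 h (log2 -0.49 ± 0.15, adjusted p = 0.0107) that was lost with the pan-neuronal covariate (adjusted p = 0.12). Its rise in 1 h Input (log2 0.48 ± 0.15, adjusted p = 0.0331) was lost without any 1 of 6 libraries (highest adjusted p = 0.172, without 1 h Input replicate 4). In IP it had 40.9, 31.0, 31.7, 31.8 and 23.1 CPM at 1 h, the time of its largest change, against 6.89, 15.7 and 27.5 CPM in naive IP (log2 1.00 ± 0.31, adjusted p = 0.0772). Sv2c was at 89.5, 87.2, 75.6 and 60.3 CPM in 7 d IP against 24.5, 40.6 and 66.3 CPM in naive IP (log2 0.77 ± 0.23, adjusted p = 0.01), with overlap. Input had 71.3, 65.8, 65.5 and 64.6 CPM at 7 d against 29.3, 40.1 and 45.0 CPM in naive Input, without overlap (log2 0.82 ± 0.15, adjusted p = 1.43e-05).

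Sv2b was the family member that fell at 48 h and 72 h in both fractions. It had 37.7, 52.0 and 62.6 CPM in 48 h IP and 23.6, 47.9 and 68.9 CPM in 72 h IP, against 72.4, 95.7 and 106 CPM in naive IP. Both times lay below naive (log2 -0.85 ± 0.23, adjusted p = 0.0208 at 48 h, and log2 -0.96 ± 0.22, adjusted p = 0.00359 at 72 h). The 48 h call was lost without any 1 of 9 libraries (highest adjusted p = 0.126, without 48 h IP replicate 5) and without the 6 libraries rich in Rn45s and Lars2 (adjusted p = 0.0828). Input had 36.9, 41.3 and 44.4 CPM at 48 h and 31.8, 40.1 and 54.1 CPM at 72 h against 62.6, 81.8 and 105 CPM in naive Input, also without overlap. Both falls passed (log2 -0.99 ± 0.13, adjusted p = 7.01e-08 at 48 h, and log2 -0.99 ± 0.13, adjusted p = 3.31e-08 at 72 h). Sv2b was already lower in 24 h Input (log2 -0.47 ± 0.14, adjusted p = 0.0164), a call lost without 24 h Input replicate 2 (adjusted p = 0.061). At 7 d in Input it was higher than naive (log2 0.36 ± 0.14, adjusted p = 0.029), a call lost without any 1 of 5 libraries (highest adjusted p = 0.152, without 7 d Input replicate 1).

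The vesicular glutamate transporters diverged: at 7 d Slc17a6 and Slc17a7 rose and Slc17a8 fell in both fractions. Slc17a7 (VGLUT1), typical of large mechanosensory and proprioceptive neurons, was at 118, 105, 163 and 236 CPM in 7 d IP against 49.2, 55.9 and 75.9 CPM in naive IP, and at 229, 191, 204 and 227 CPM in 7 d Input against 43.4, 55.3 and 117 CPM in naive Input. All 7 d libraries lay above all naive ones (log2 1.27 ± 0.22, adjusted p = 2.00e-05 in IP, and log2 1.65 ± 0.22, adjusted p = 6.77e-08 in Input). Slc17a7 was also higher in 1 h Input (log2 0.79 ± 0.21, adjusted p = 0.0203), lost without 1 h Input replicate 1 (adjusted p = 0.0695), 1 h Input replicate 4 (adjusted p = 0.0958) or naive Input replicate 2 (adjusted p = 0.0508). It was higher in 48 h Input too (log2 0.53 ± 0.21, adjusted p = 0.0395), lost without any 1 of 7 libraries (highest adjusted p = 0.0958, without naive Input replicate 2), and with the pan-neuronal covariate (adjusted p = 0.278). Slc17a6 (VGLUT2), found in most nociceptors, had 197, 159, 174 and 197 CPM in 7 d Input against 62.2, 88.3 and 115 CPM in naive Input, without overlap (log2 1.11 ± 0.15, adjusted p = 2.76e-08). In IP it stood at 161, 127, 156 and 156 CPM at 7 d against 86.3, 95.8 and 136 CPM in naive IP, with overlap (log2 0.51 ± 0.20, adjusted p = 0.0446). That call was lost without any 1 of 7 libraries (highest adjusted p = 0.106, without 7 d IP replicate 1) and with the glial covariate (adjusted p = 0.059), and Slc17a6 did not pass the F-test over the 6 times in IP (adjusted p = 0.349).

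Slc17a8 (VGLUT3), which marks a small group of low-threshold C-fiber touch receptors, rested on few counts. It was at 1.09, 1.43, 1.56 and 0.150 CPM in 7 d IP, from 69 counts over 4 libraries, against 3.86, 5.66 and 15.3 CPM in naive IP, from 302 counts over 7 libraries. The groups did not overlap (log2 -2.74 ± 0.60, adjusted p = 0.000532). In Input it had 0.239, 0.669 and 1.16 CPM at 48 h and 1.40, 0.959, 0.955 and 0.622 CPM at 7 d, against 0.968, 2.51 and 4.36 CPM in naive Input. Both times overlapped naive (log2 -1.81 ± 0.40, adjusted p = 0.000433 at 48 h, and log2 -1.18 ± 0.39, adjusted p = 0.0095 at 7 d). The fall in 1 h Input (log2 -1.15 ± 0.38, adjusted p = 0.0452) was lost without any 1 of 7 libraries (highest adjusted p = 0.154, without 1 h Input replicate 4). The fall in 24 h Input (log2 -1.18 ± 0.40, adjusted p = 0.0473) was lost without any 1 of 18 libraries (highest adjusted p = 0.16, without 24 h Input replicate 1).

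**Figure D3:**
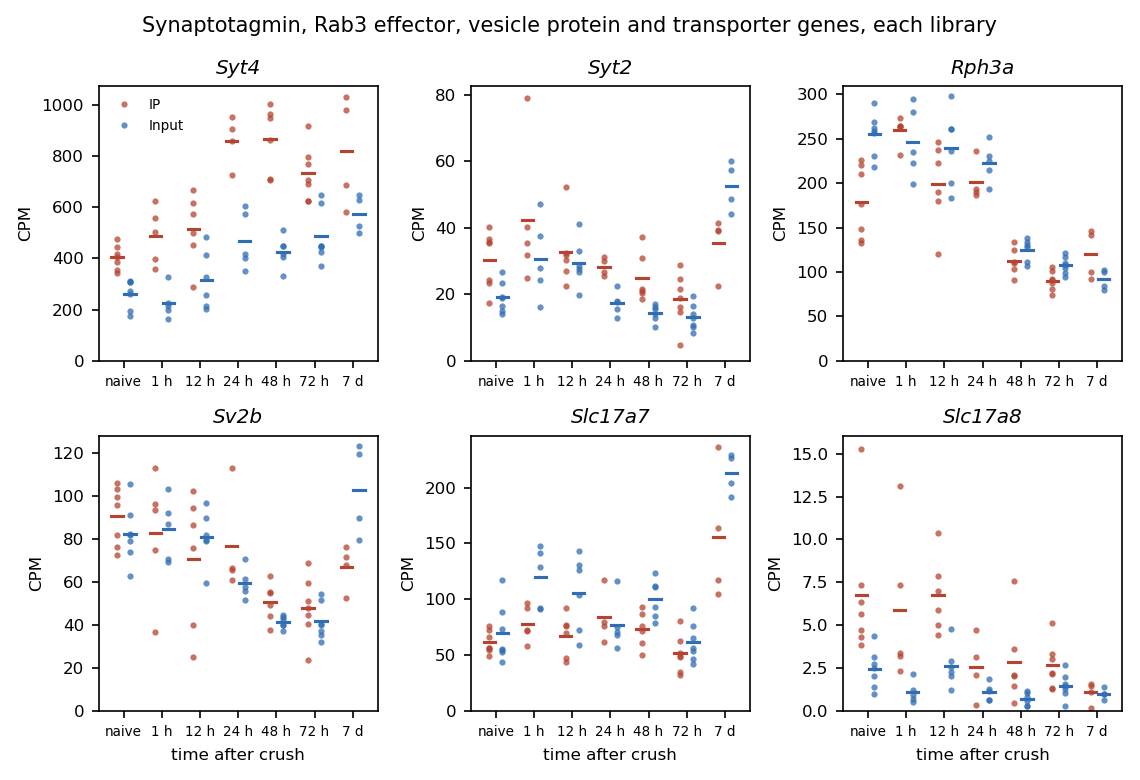
CPM of Syt4, Syt2, Rph3a, Sv2b, Slc17a7 and Slc17a8 in every library (points) with group means (bars) in naive ganglia and at 6 times after crush, IP in red and Input in blue. Syt4 is high from 24 h, Rph3a and Sv2b are low at 48 h and 72 h, and Slc17a7 is highest at 7 d in both fractions.

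Among the synapsins and synucleins, Syn1 rose at 7 d in both fractions, Sncb in IP, and Sncg fell in Input. Syn1 encodes synapsin 1, which tethers the reserve pool of vesicles. It was at 255, 182, 204 and 207 CPM in 7 d IP against 75.4, 93.1 and 160.2 CPM in naive IP, and at 477, 356, 320.1 and 361 CPM in 7 d Input against 124, 139.6 and 183 CPM in naive Input. No 7 d library overlapped naive (log2 0.95 ± 0.25, adjusted p = 0.00354 in IP, and log2 1.39 ± 0.18, adjusted p = 2.45e-08 in Input). The spans of the synapsin genes hold genes for tissue inhibitors of metalloproteinases, a pairing singled out after values were seen: Timp1 lies within the Syn1 span, Timp4 within Syn2 and Timp3 within Syn3. Timp1 was higher in IP at 12 h (log2 change 2.59 ± 0.52, adjusted p = 0.00166) and 24 h (3.81 ± 0.52, adjusted p = 9.11e-07), times at which Syn1 did not pass in IP. It was also higher at 7 d, when Syn1 rose, in IP (2.58 ± 0.53, adjusted p = 0.000224) and in Input (1.90 ± 0.26, adjusted p = 5.43e-08). Its levels were low, with a mean of 9.76 ± 8.39 CPM in 7 d IP against 1.61 ± 1.28 CPM in naive IP, and of 8.16 ± 2.20 CPM in 7 d Input against 2.26 ± 0.84 CPM in naive Input (SD, n = 4 and 7). Timp4 had a mean of 0.704 ± 0.529 CPM in 48 h Input and 0.657 ± 0.760 CPM in 72 h Input, against 2.14 ± 1.68 CPM in naive Input (n = 6, 7 and 7). It was lower in Input at 48 h (-1.46 ± 0.47, adjusted p = 0.0131) and 72 h (-1.75 ± 0.51, adjusted p = 0.00874), when Syn2 fell, and also at 12 h and 7 d. Timp3 was lower in Input at 72 h (-0.47 ± 0.12, adjusted p = 0.00387) and higher at 7 d (1.09 ± 0.14, adjusted p = 1.19e-08), times at which Syn3 did not pass, and neither Timp3 nor Timp4 passed at a single time in IP. The sources used here do not give the strand setting of the counting, so reads of the paired genes could have been shared, and this was not tested. Of the 35 genes, 19 overlap the span of another annotated gene, 5 of them a protein-coding one (Syn1, Syn2, Syn3, Syt1 and Unc13a).

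Syn2 fell in Input at 48 h (log2 -0.35 ± 0.10, adjusted p = 0.00768) and at 72 h without overlap (log2 -0.63 ± 0.10, adjusted p = 3.87e-06), and Syn3 fell in Input at 48 h (log2 -0.68 ± 0.18, adjusted p = 0.00323). Sncb, beta-synuclein, had 44.7, 43.3, 46.1 and 54.2 CPM in 7 d IP against 16.7, 27.4 and 32.1 CPM in naive IP, without overlap (log2 0.82 ± 0.23, adjusted p = 0.00649). Its Input value at 7 d was 0.25 ± 0.17 (adjusted p = 0.211). Sncg, gamma-synuclein, is abundant in peripheral sensory neurons. It averaged 1602 ± 71.8 CPM in 7 d Input (SD, n = 4) and 2766 ± 853 CPM in naive Input (SD, n = 7), a fall (log2 -0.75 ± 0.21, adjusted p = 0.00194) with overlapping libraries.

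Of the 3 endocytosis genes, Dnm1 changed over the 6 times in both fractions and Amph and Sh3gl2 passed in Input. The interaction with fraction over the 6 times called 0 of the 3. Of all genes, 29.9% passed in IP, 73.2% in Input and 12% in that interaction. Dnm1, the GTPase that cuts vesicles from the membrane, averaged 241 ± 55.5 CPM in 1 h IP (n = 5) and 143 ± 23.9 CPM in naive IP (n = 7), without overlap (log2 0.79 ± 0.22, adjusted p = 0.0459). The call was lost without any 1 of 31 libraries (highest adjusted p = 0.226, without 1 h IP replicate 1). Input rises of Dnm1 passed at 1 h (log2 0.48 ± 0.13, adjusted p = 0.021), 12 h (log2 0.45 ± 0.13, adjusted p = 0.0268) and 7 d (log2 0.63 ± 0.14, adjusted p = 0.000212). With the pan-neuronal covariate the 7 d call was lost (0.27 ± 0.14, adjusted p = 0.135). The 1 h call was lost without 1 h Input replicate 1 (adjusted p = 0.0991) or 1 h Input replicate 4 (adjusted p = 0.142). The 12 h call was lost without any 1 of 5 libraries (highest adjusted p = 0.101, without 12 h Input replicate 2). Amph (amphiphysin) and Sh3gl2 (endophilin A1), which bend the membrane, fell in Input at 72 h (log2 -0.46 ± 0.09, adjusted p = 0.00017 for Amph, and log2 -0.75 ± 0.15, adjusted p = 0.000102 for Sh3gl2). Sh3gl2 was higher in Input at 1 h (log2 0.50 ± 0.15, adjusted p = 0.0321), lost without any 1 of 8 libraries (highest adjusted p = 0.144, without 1 h Input replicate 4). Neither gene passed in IP at any single time.

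At 7 d relative to 72 h, 14 genes were higher and 2 lower in IP, against 9.95% and 9.89% of all genes, and 19 were higher and 2 lower in Input, against 28.2% and 24.7%. The median log2 change of the 35 genes was 0.46 in IP and 0.46 in Input, beside -0.13 and 0.03 over all genes. Among the higher ones in IP were Slc17a7 (log2 1.57 ± 0.22, adjusted p = 3.11e-06), Cplx1 (log2 1.14 ± 0.24, adjusted p = 0.000751), Syp (log2 1.02 ± 0.21, adjusted p = 0.000741) and Snap25 (log2 1.04 ± 0.24, adjusted p = 0.00177). In Input the largest rise was that of Syt2 (log2 2.03 ± 0.21, adjusted p = 8.15e-11), followed by Slc17a7 (log2 1.83 ± 0.23, adjusted p = 9.68e-09) and Sv2a (log2 1.44 ± 0.16, adjusted p = 3.77e-10). Cplx2 was lower again in IP (log2 -0.72 ± 0.25, adjusted p = 0.0316) and Input (log2 -1.23 ± 0.19, adjusted p = 1.05e-06). The IP call was lost without any 1 of 16 libraries (highest adjusted p = 0.152, without 7 d IP replicate 4). The IP count was 10 without 7 d IP replicate 4, and 13 Input genes passed with either the glial or the pan-neuronal marker level as a covariate. Of all genes, 26.7% passed with the glial and 16.7% with the pan-neuronal covariate, in place of 52.9%.

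In naive ganglia 7 of the 35 genes were higher and 16 lower in IP than in Input, against 27.6% and 19.2% of 19584 genes. The members had a median of -0.34 on the log2 scale beside 0.25 over all genes. With RLE size factors the median over all genes was 0.38, and 9 members were higher and 12 lower, against 31.1% and 16.5%. All 4 SNARE genes and Cplx1 were lower in IP, with Cplx1 at 248, 281 and 527 CPM in naive IP against 718, 931 and 1296 CPM in naive Input (log2 -1.55 ± 0.20, adjusted p = 2.53e-09). The largest shortfall was that of Sncg, at 489, 612 and 1053 CPM in naive IP against 1591, 2963 and 3934 CPM in naive Input (log2 -2.06 ± 0.23, adjusted p = 5.95e-11). Rab3a (-1.18 ± 0.16), Sncb (-1.19 ± 0.18), Vamp1 (-1.41 ± 0.23) and Vamp2 (-1.11 ± 0.19) followed. Higher in naive IP were Slc17a8 (log2 1.45 ± 0.38, adjusted p = 0.00122), Syt4 (log2 0.63 ± 0.17, adjusted p = 0.00151), Unc13a (log2 0.55 ± 0.16, adjusted p = 0.00273), Syt2, Syn3, Pclo and Syt1. Among these the Pclo call was lost without naive Input replicate 1 (adjusted p = 0.0538), naive Input replicate 3 (adjusted p = 0.103), naive Input replicate 5 (adjusted p = 0.0751) or naive IP replicate 2 (adjusted p = 0.0593). That of Syn3 was lost without naive IP replicate 4 (adjusted p = 0.28) or naive IP replicate 6 (adjusted p = 0.0538), and that of Syt1 without naive Input replicate 1 (adjusted p = 0.0612) or naive Input replicate 3 (adjusted p = 0.102). Of the lower calls, that of Syn1 was lost without any 1 of 12 libraries (highest adjusted p = 0.137) and that of Dnm1 without any 1 of 11 (0.113). The Syp call was lost without any 1 of 5 (0.12), that of Syt5 without any 1 of 3 (0.0992) and that of Amph without naive IP replicate 1 (0.0629). In the naive libraries the 12 pan-neuronal markers summed to a median of 8703 CPM in naive IP and 13158 CPM in naive Input, and the Schwann and myelin markers to 5082 CPM in naive IP and 2663 CPM in naive Input. With the pan-neuronal covariate 10 members were higher and 10 lower, against 22.8% and 16.6% of all genes, and their median was -0.10 beside 0.21 over all genes. With the glial covariate (satellite glia and Schwann markers) 7 were higher and 14 lower, against 27.1% and 19.4% of all genes, and the members' median was -0.29.

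**Figure D4:**
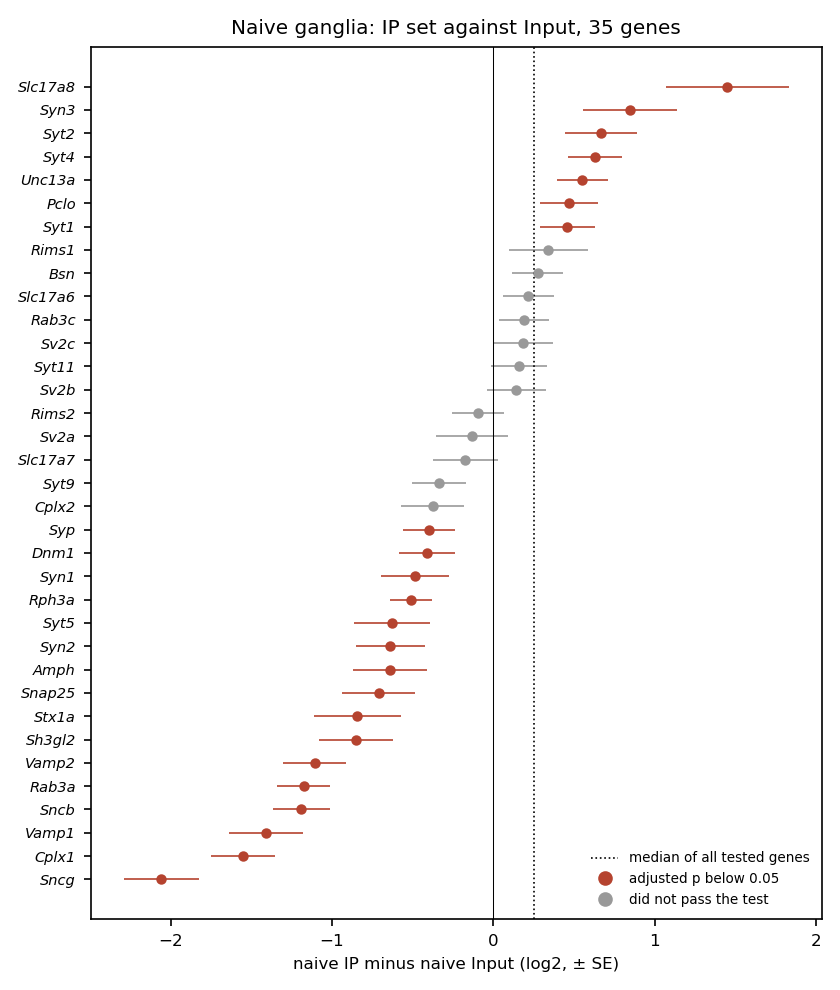
Naive IP minus naive Input on the log2 scale (points, bars ± SE) for the 35 genes, ordered by value, with the median of all tested genes dotted. Red marks an adjusted p below 0.05. Sncg, Cplx1 and Vamp1 lie lowest and Slc17a8 highest.

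The responses of IP and Input to crush were compared by the interaction of fraction and time. It gave 6 of the 35 genes over the 6 times (Cplx1, Stx1a, Rab3a, Rph3a, Sncb and Sncg), against 12% of 19584 genes, and 0 without the 7 d libraries. Without 7 d Input replicate 4, 2 genes passed over the 6 times. No member passed at 1 h, 12 h, 24 h, 48 h or 72 h, where edgeR called 0.0102%, 0.00511%, 0.0204%, 0.0357% and 0% of all genes. At these times 1 to 6 members had an unadjusted p below 0.05, and DESeq2 called 2 at 1 h (2.12% of all genes) and 0 at the other 4. At 7 d the IP log2 change minus the Input log2 change was called positive for 7 genes, against 8.88% of all genes, and negative for 1, against 6.34%. All 7 were also called lower in naive IP than in naive Input, and the 1 negative gene, Syt2, was called higher there. Both comparisons use the same naive libraries, so these results are not independent. A positive difference need not be a larger change in IP. Rph3a fell less in IP (-0.64) than in Input (-1.44), and Rab3a (-0.72) and Sncg (-0.75) were called lower at 7 d in Input only. The median over all genes was -0.08, and -0.19 with RLE size factors. The positive differences were led by Stx1a (log2 1.58 ± 0.43, adjusted p = 0.00766), Cplx1 (log2 1.30 ± 0.32, adjusted p = 0.00351), Sncg (log2 1.23 ± 0.37, adjusted p = 0.0166) and Vamp1 (log2 1.13 ± 0.37, adjusted p = 0.0287). The others were Rab3a (log2 1.00 ± 0.27, adjusted p = 0.00611), Vamp2 (log2 0.90 ± 0.32, adjusted p = 0.0405) and Rph3a (log2 0.90 ± 0.22, adjusted p = 0.00285). Syt2 was the gene with the smaller IP response (log2 -1.24 ± 0.36, adjusted p = 0.0132). With the pan-neuronal covariate 4 genes had a positive difference and 4 a negative one, against 5.19% and 4.9% of all genes, and with the glial covariate 4 and 2, against 7.63% and 4.67%. The calls of Vamp1 and Vamp2 were lost under both, that of Sncg under the first (adjusted p = 0.0686) and that of Rph3a under the second (adjusted p = 0.0681). Leaving out single libraries, calls were lost for Sncg without 7 d IP replicate 4 (adjusted p = 0.0507), for Vamp1 without any 1 of 7 libraries (highest adjusted p = 0.0639, without 7 d Input replicate 2) and for Vamp2 without any 1 of 12 libraries (highest adjusted p = 0.0852, without 7 d Input replicate 4). At 7 d, 16 genes were called in both fractions, 84.2% of the 19 IP calls and 66.7% of the 24 Input calls, and all 16 went the same way. Over the 16015 genes in both fits, the calls shared were 67.8% of those in IP and 35.7% of those in Input, and 91.4% of them went the same way.

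**Figure D5:**
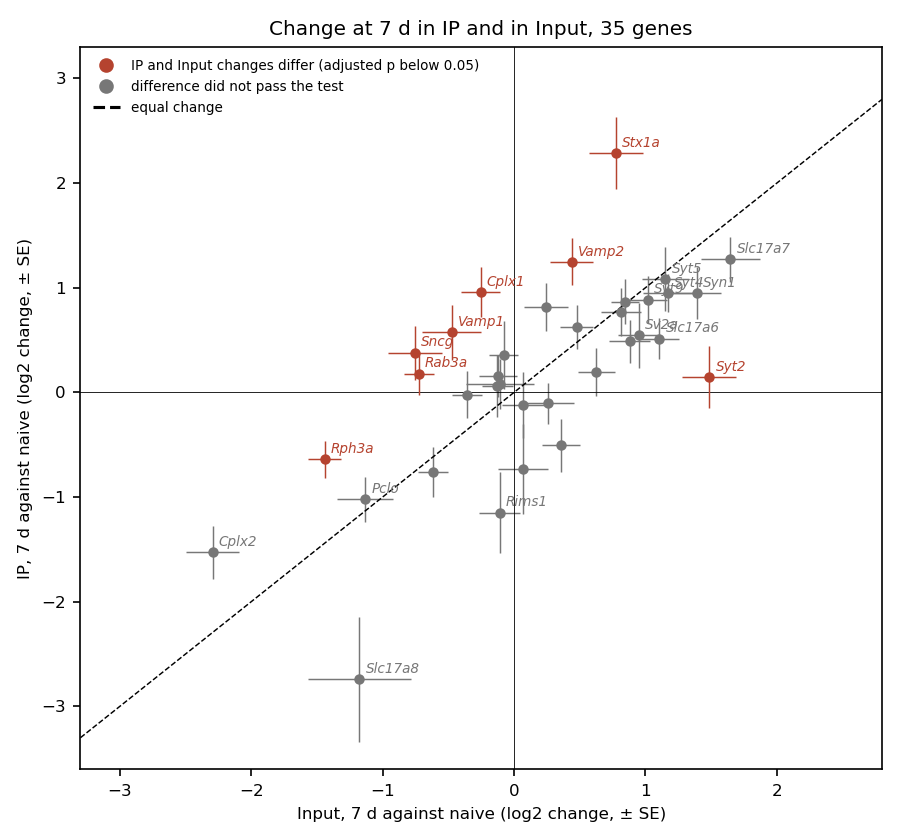
Log2 change at 7 d against naive in IP (vertical) and in Input (horizontal) for the 35 genes, bars ± SE, with a dashed line at equal change. Red marks the 8 genes whose IP and Input changes differed at an adjusted p below 0.05; 7 lie above the line and Syt2 below it.

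A longer list of 70 other genes of the release machinery was fixed beside the 35, and 66 of them were tested in IP and 67 in Input. Over the 6 times 33 changed in IP and 58 in Input, against 29.9% and 73.2% of all genes. At 7 d 16 were higher and 7 lower in IP, against 13.1% and 15.3% of all genes, and 26 higher and 15 lower in Input, against 29.7% and 26.4%. Their median log2 change at 7 d was 0.06 in IP and 0.18 in Input. Syngr3, synaptogyrin 3 of the vesicle membrane, averaged 217 CPM in 7 d IP and 52.9 CPM in naive IP (log2 change 1.97 ± 0.25, adjusted p = 4.70e-08), and rose in Input too (1.81 ± 0.21, adjusted p = 2.38e-09). Napa, alpha-SNAP that takes spent SNARE complexes apart, averaged 441 CPM in 7 d IP and 115 CPM in naive IP (1.87 ± 0.24, adjusted p = 7.07e-08). Cltb, a clathrin light chain, rose in IP at 72 h (0.82 ± 0.18, adjusted p = 0.0021) and 7 d (1.27 ± 0.20, adjusted p = 5.58e-06). Erc2, an active zone scaffold, rose in IP at 24 h (0.99 ± 0.18, adjusted p = 0.000315) and 72 h (0.72 ± 0.16, adjusted p = 0.00223). Dnm3 fell in 7 d IP (-0.79 ± 0.21, adjusted p = 0.00392) and 7 d Input (-1.37 ± 0.22, adjusted p = 1.23e-06). Vamp8, an endosomal SNARE, fell in 7 d IP (-0.87 ± 0.27, adjusted p = 0.0138), and Synpr, synaptoporin of the vesicle membrane, fell in 72 h IP (-0.87 ± 0.18, adjusted p = 0.00155). Synpr was lower in 72 h Input (-0.71 ± 0.14, adjusted p = 8.82e-05) and higher in 7 d Input (0.64 ± 0.15, adjusted p = 0.000491). Syt10 was near the limit of counting, with means of 0.0250 CPM in 7 d IP and 2.27 CPM in naive IP.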

How the data were processed

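RNA of 39 IP and 40 Input libraries was measured by 75 bp paired-end sequencing on 1 lane. The authors deposited raw read counts per RefSeq gene symbol for mm10, per the file headers. The submitters' processing notes name bcl2fastq 2.17, STAR and HTSeq, with no versions of the last 2, and the sources used here do not give a strand setting. Of 24060 symbols, 27 read as calendar dates, a spreadsheet error, and were dropped (0.0346% to 0.214% of a library's counts). Within groups, 192 pairs of libraries were compared and 0 were identical.

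Counts were fitted with edgeR 4.0.16 (R 4.3.3) by the quasi-likelihood method with TMM factors and its default filter on low counts, within IP, within Input and over both for the interaction. P-values were adjusted over all genes tested by the Benjamini-Hochberg method at 0.05. The scripts were tested on simulated data. Alternatives were DESeq2 1.42.0, RLE factors, other filters, covariates, a replicate block and each library left out. An earlier quasi-likelihood method and a fit without 7 d were added after seeing the data. The members and lists were chosen with earlier results of these data known. Members with an F-test call and an absolute log2 change of at least 0.8, the transporters and the core SNARE genes were given by library. Of the other machinery, the 4 that rose and the 4 that fell with the smallest p over the 6 times in IP were named. Same-numbered IP and Input libraries were not taken as pairs, as their deviations did not correlate above 0.1 in every pair. This rule does not test for pairing. Of 39 pairs, 21 correlated best with their own number, against 6.8 if each Input library of a time were as likely. The tests of naive IP against Input and of the interaction thus treat libraries as independent. A fit with the number as a block was an alternative.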

Additional observations from a re-analysis of the deposited data

Results flagged for a closer look

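For the 25 genes given by library, in 14 groups of 4 to 7 libraries, 18 of 350 sets of values (5.14%) held a library far from the others by Dixon's test, and chance flags about 1 in 20 groups. High values, in CPM, were Bsn at 56.4 in 7 d IP replicate 1 (others 44.0 to 44.5), Cplx1 at 1173 in 48 h Input replicate 1 (1013 to 1052), Slc17a8 at 15.3 in naive IP replicate 6 (3.86 to 7.31), Sv2c at 72.2 in 72 h IP replicate 7 (37.8 to 50.4) and Syn1 at 232 in 48 h Input replicate 5 (131 to 167). Syt2 was high at 52.2 in 12 h IP replicate 6 (22.4 to 32.5) and at 78.9 in 1 h IP replicate 2 (24.8 to 40.3), and Syt9 at 88.9 in 24 h Input replicate 1 (63.8 to 68.7). In 24 h IP replicate 1, Rph3a was at 236 (187 to 194), Sncb at 37.1 (25.0 to 26.0) and Sv2b at 113 (60.8 to 66.3).

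Low values, in CPM, were Pclo at 124 in 12 h IP replicate 3 (others 218 to 241), Rph3a at 232 in 1 h IP replicate 1 (263 to 274), Slc17a6 at 127 in 7 d IP replicate 2 (156 to 161) and Stx1a at 4.15 in 24 h IP replicate 2 (31.1 to 35.3). Syt1 was low at 104 in naive IP replicate 6 (162 to 197) and at 44.7 in 48 h Input replicate 5 (64.1 to 73.4), and Syt2 at 22.5 in 7 d IP replicate 1 (38.9 to 41.3).

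The IP and Input responses over the 6 times differed by edgeR's interaction test for Cplx1 (adjusted p = 0.00877), Rab3a (adjusted p = 0.0120), Sncb (adjusted p = 0.0292), Stx1a (adjusted p = 0.0423), Sncg (adjusted p = 0.0429) and Rph3a (adjusted p = 0.0430). At 7 d the IP change minus the Input change on the log2 scale was 1.58 for Stx1a, 1.30 for Cplx1, 1.23 for Sncg, 1.13 for Vamp1, 1.00 for Rab3a, 0.90 for Vamp2, 0.90 for Rph3a and -1.24 for Syt2. From the same naive libraries, the genes with positive values were called lower in naive IP than in naive Input, and Syt2 higher.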

How the results depend on the processing

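Counts are of the 35 genes called. DESeq2 called 8 in 1 h IP (edgeR 2), 4 in 12 h IP (0) and 14 for the interaction over the 6 times (6). It called 4.05%, 6.06% and 18.8% of all genes there, against 1.57%, 2.27% and 12.0% with edgeR. The interaction over the times gave 10 with RLE factors (14.4% of all genes) and 10 with a mean of at least 1 CPM (18.3%). It gave 3 with the earlier quasi-likelihood method (8.28%) and 0 without the 7 d libraries (0.139%). Without the 7 d libraries IP had 16 over the times (27), against 11.6% of all genes (29.9%). In 1 h IP the count was 1 with the earlier method, with the Xist and Ddx3y covariate and without the libraries rich in Rn45s and Lars2, and 0 with no filter, the glial or the pan-neuronal covariate. The shares of all genes called were 1.2%, 0.809%, 0.489%, 0.915%, 0.268% and 2.09% in that order. Without the rich libraries 12 h IP gave 1 (1.12% of all genes). The pan-neuronal covariate gave 1 in 12 h IP, 7 in 48 h IP (4), 1 in 1 h Input (9), 7 in 12 h Input (3) and 13 at 7 d against 72 h in Input (21). Of all genes it called 2.99%, 3.85%, 5.18%, 11.8% and 16.7% there, against 2.27%, 3.22%, 11.2%, 5.08% and 52.9% without it. The glial covariate gave 1 in 12 h Input, 13 in 7 d Input (24) and 13 at 7 d against 72 h in Input. Its shares of all genes were 2.72%, 31.5% and 26.7%. The Xist and Ddx3y covariate gave 4 in 1 h Input (6.55% of all genes) and 0 in 12 h Input (1.14%). Snap25 at 7 d against 72 h in Input turned to -0.23 with the pan-neuronal covariate (adjusted p = 0.699). The causes were not tested. Of 1702 values of single calls under alternatives, 1549 stayed past the threshold, 152 did not and 1 turned.

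With the replicate number as a block, 1 gene was called in 1 h IP, 5 in 1 h Input and 1 in 24 h Input (3), and the F-tests gave 26 in IP and 32 in Input. The shares of all genes were 1.3%, 7.79%, 10.7%, 23.8% and 72.0% in that order. Within a fraction this block joined same-numbered libraries of different times, which the labels do not link. There, 4 of 32 IP and 2 of 33 Input libraries correlated best with their own number in the naive group. The correlation of deviations between same-numbered IP and Input libraries was -0.106 to 0.208 over 39 pairs, 8 of them over 0.1, and 21 correlated best with their own number, against 6.8 if each Input library of a time were as likely. This is a hint from the data, not the design. With time and number as a block, 22 genes differed between naive IP and Input (23 without it), 7 in the interaction over the times (6) and 9 at 7 d (8).

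Leaving out 1 library gave 25 to 30 genes over the times in IP and 32 to 33 in Input. In IP it gave 0 to 4 at 1 h, 0 to 4 at 12 h, 1 to 2 at 24 h, 3 to 4 at 48 h, 5 to 7 at 72 h, 15 to 20 at 7 d and 10 to 16 at 7 d against 72 h. In Input it gave 0 to 11, 1 to 7, 1 to 4, 13 to 17, 14 to 17, 23 to 25 and 20 to 22 in the same order. Naive IP against Input gave 18 to 24, the interaction 2 to 9 over the times and 6 to 9 at 7 d. Low totals and few counts limit genes such as Slc17a8.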
